A study of Mus musculus with 6 samples.

Results

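Fc receptors are the surface proteins through which macrophages bind the constant part of antibodies. The 6 genes described here were chosen by name, as the Fc receptor genes *Fcgr1*, *Fcgr2b*, *Fcgr3* and *Fcgr4* for IgG, the signalling chain *Fcer1g*, and *Fcgrt*, which encodes the neonatal Fc receptor. All 6 were found among the 49315 genes of the count tables, and all 6 were among the 16134 genes with enough counts to be tested. The RNA came from liver cells that carry the macrophage protein F4/80, a preparation enriched for Kupffer cells, the macrophages that reside in the liver, captured on magnetic beads with an anti-F4/80 antibody. The Lpcat3 KOMac mice were Lpcat3 fl/fl/LysM Cre/+ and the WT mice were their Lpcat3 fl/fl/LysM +/+ littermates, so that both groups carried the floxed *Lpcat3* alleles on a C57BL/6N background. The mice were 8 to 12 weeks old when they were placed on a high-fat diet (HFD) with 60% fat, and they stayed on it for 16 weeks. Each group held 3 mice, with 1 library per mouse. Cre is driven by the *Lyz2* (LysM) promoter in myeloid cells and replaces part of one *Lyz2* allele, and the WT mice carried no Cre, so that effects of Cre and of losing a *Lyz2* allele cannot be told apart from those of *Lpcat3* deletion.

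Fcγ receptors of the activating kind signal through the γ chain encoded by *Fcer1g*. Its cytoplasmic tail holds an ITAM, a pair of tyrosines with spaced leucines that Src family kinases phosphorylate and that Syk then binds. The inhibitory receptor encoded by *Fcgr2b* has instead an ITIM in its own tail, a single tyrosine motif that recruits the phosphatase SHIP1 (*Inpp5d*) and dampens ITAM signals. In the liver, *Fcgr2b* is expressed both by Kupffer cells and by sinusoidal endothelial cells, which take up small immune complexes from the blood. The neonatal Fc receptor pairs with β2-microglobulin (*B2m*) and returns IgG and albumin from endosomes to the cell surface.

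The bases that encode the ITAM of the γ chain and the ITIM of *Fcgr2b* are shown because the opposite signs of these receptors rest on them. They were read 5′ to 3′ from the principal GENCODE M21 transcripts (GRCm38). The ITAM bases lie on the minus strand within chr1:171229889-171230072, are split by an intron, and are codons 65 to 79 of 86. The ITIM bases lie in 1 exon on the minus strand at chr1:170961071-170961088 and are codons 317 to 322 of 340. Capitals mark the tyrosine and leucine codons of the ITAM and, in the ITIM, the tyrosine codon and the aliphatic codons before and after it.
*Fcer1g* ITAM: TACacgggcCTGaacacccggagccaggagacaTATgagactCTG
*Fcgr2b* ITIM: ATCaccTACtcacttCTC
The ITAM pattern was found in 1 of the 6 coding sequences, that of *Fcer1g*. The shorter ITIM pattern matched 7 times in 5 of the 6, so that a match alone does not mark an inhibitory tail.

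*Fcgr2b*, *Fcgr4*, *Fcgr3* and *Fcer1g* share a stretch of chromosome 1 in GRCm38. *Fcgr2b* (ENSMUSG00000026656) lies at chr1:170958617-170976547 on the minus strand, and *Fcgr4* (ENSMUSG00000059089) at chr1:171018920-171029761 on the plus strand. *Fcgr3* (ENSMUSG00000059498) lies at chr1:171051174-171064935 and *Fcer1g* (ENSMUSG00000058715) at chr1:171229572-171234365, both on the minus strand. The gap between *Fcgr2b* and *Fcgr4* is 42372 bases, that between *Fcgr4* and *Fcgr3* is 21412 bases, and *Fcer1g* follows 164636 bases after *Fcgr3*. *Fcgr1* (ENSMUSG00000015947) lies elsewhere, at chr3:96282909-96293969 on the minus strand, and *Fcgrt* (ENSMUSG00000003420) at chr7:45092990-45103851 on the minus strand.

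*Fcgr2b* and *Fcgr3* are close paralogs, with 79.5% identical bases over 782 aligned coding bases, whereas the other pairs of Fcγ receptor genes shared between 57.0% and 63.2%. Their longest identical coding run has 129 bases, at coding positions 278 to 406 of *Fcgr2b* and 263 to 391 of *Fcgr3*, and is shown because reads within it cannot be assigned to either gene by sequence.
*Fcgr2b* and *Fcgr3* shared run: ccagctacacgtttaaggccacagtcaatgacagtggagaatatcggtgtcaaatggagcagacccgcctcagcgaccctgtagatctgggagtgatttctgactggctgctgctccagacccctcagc
Of all 50-base words in the transcripts, 2.92% of those of *Fcgr2b* and 9.58% of those of *Fcgr3* were shared between these genes. Counting any other gene, 6.95% of the *Fcgr2b* words were shared, with 146 genes in all, and for *Fcgr3* the share stayed at 9.58%. *Fcgr1*, *Fcgr4*, *Fcer1g* and *Fcgrt* shared no 50-base word with any other gene. How the counting treated reads that match several places is not given in the sources used here, so the levels of *Fcgr2b* and *Fcgr3* carry that uncertainty. Overlapping genes held few counts, at most 25 in any library (*Gm26110*, within *Fcgr4*), and *Gm38204*, which shares 155 exonic bases with *Fcgr2b* on the other strand, held at most 12.

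Total counts per library lay between 44954224 and 71392812. Levels are given as CPM (counts scaled to a common library total) after TMM scaling, which corrects for library size and composition. Kupffer cell markers were abundant in all 6 libraries, with the 9 markers summing to between 23450 and 41470 CPM. Sums of 7 hepatocyte markers varied most, from 1845 to 23600 CPM in WT and from 4999 to 14140 CPM in Lpcat3 KOMac libraries. Those of 8 sinusoidal endothelial markers lay between 1693 and 2246 CPM in WT and between 1805 and 2220 CPM in Lpcat3 KOMac, and those of 6 B and plasma cell markers were at most 50.1 CPM. Neutrophil sums were between 79.0 and 157.6 CPM, stellate cell sums between 55.4 and 202.0 CPM, dendritic cell sums at most 12.1 CPM and T and NK cell sums at most 3.07 CPM. The targeted gene *Lpcat3* stood in the WT mice at 85.0, 66.2 and 61.2 CPM and in the Lpcat3 KOMac mice at 19.5, 33.3 and 19.4 CPM (mice 1 to 3 in each case), so the transcript was reduced but still counted in every Lpcat3 KOMac library.

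Compared per kilobase of exon, *Fcer1g* had the highest level of the 6, with a mean of 504.4 CPM per kb over all libraries. The activating receptors *Fcgr4* (355.3 CPM per kb) and *Fcgr3* (322.3 CPM per kb) followed, then *Fcgrt* (182.0 CPM per kb) and the high-affinity receptor *Fcgr1* (109.5 CPM per kb). *Fcgr2b* was the lowest at 19.0 CPM per kb, and *Fcer1g* exceeded it 26.6-fold. The length was that of all annotated exons, 5790 bases for *Fcgr2b*, whose longest protein-coding transcript has 3544 bases. For *Fcer1g* these lengths were 874 and 683 bases, so the levels per kb and the 26.6-fold depend on this choice. *Fcgr4* and *Fcgr3* had overlapping values across libraries, whereas every other pair of neighbours in this order was separated in all 6 libraries. Among all genes tested, the mean CPM of *Fcgr2b* stood at percentile 88.6 and those of the other 5 between percentiles 96.5 and 98.7.

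The comparison of genotypes asks whether loss of *Lpcat3* in myeloid cells went with a change in these transcripts. No gene of the 6 passed an adjusted p under 0.05 with edgeR (quasi-likelihood, Benjamini-Hochberg over all genes), where 0 of the 16134 genes tested (0.0%) passed and 426 had an unadjusted p under 0.05. DESeq2 called 12 genes (0.0744%), none of them an Fc receptor gene, and limma-voom called 0. The deleted gene *Lpcat3* itself, with a log2 fold change of -1.56, had an adjusted p of 0.9999 in edgeR and 0.00286 in DESeq2. A missing call in edgeR therefore does not show that a transcript was unchanged. The estimates pointed down for the 3 activating receptors, the γ chain and *Fcgrt*, and up for *Fcgr2b*. Of all genes tested, 59.9% had a log2 fold change below 0 and the median was -0.04, beside a median of -0.19 over the 6. In bulk RNA, fewer cells of a type and less RNA per cell cannot be told apart.

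*Fcgr1*, whose product binds monomeric IgG2a with high affinity, gave 296.6, 300.3 and 305.0 CPM in WT mice 1 to 3, against 271.9, 292.5 and 234.7 CPM in Lpcat3 KOMac mice 1 to 3. All 3 Lpcat3 KOMac values lay below all 3 WT values, and the WT values were within 1.03-fold of each other. Among all genes tested, 5.2% had every Lpcat3 KOMac library below every WT library and 2.29% had every one above. The log2 fold change of *Fcgr1* was -0.17 (standard error 0.10, 95% confidence interval -0.43 to 0.08), with an adjusted p of 0.9999 in edgeR and an exact permutation p of 0.1, the smallest that 3 mice against 3 can give.

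*Fcgr3*, a low-affinity activating receptor, was at 565.8, 657.4 and 574.9 CPM in WT and at 446.5, 600.5 and 512.1 CPM in Lpcat3 KOMac mice 1 to 3. Lpcat3 KOMac mouse 2 stood above WT mice 1 and 3, so the groups overlapped. The log2 fold change was -0.21 (standard error 0.14, 95% confidence interval -0.54 to 0.13, adjusted p = 0.9999 in edgeR).

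*Fcgr4*, an activating receptor for IgG2 subclasses, was at 468.7, 493.6 and 459.7 CPM in WT and at 379.7, 499.2 and 376.8 CPM in Lpcat3 KOMac mice 1 to 3. The highest of the 6 values was that of Lpcat3 KOMac mouse 2, while mice 1 and 3 of that group were below every WT mouse. The log2 fold change was -0.18 (standard error 0.13, 95% confidence interval -0.51 to 0.15, adjusted p = 0.9999 in edgeR). WT mouse 1 and Lpcat3 KOMac mouse 2 were the libraries with the most hepatocyte transcripts, and without both the log2 fold changes were -0.36 for *Fcgr3* and -0.33 for *Fcgr4*, still with adjusted p of 0.396 and 0.280 in edgeR. With the mean of the hepatocyte markers as a covariate in edgeR, the values were -0.21 for *Fcgr3* and -0.20 for *Fcgr4*. Without Lpcat3 KOMac mouse 1 they were -0.07 for both, and without Lpcat3 KOMac mouse 3 they were -0.16 for *Fcgr3* and -0.08 for *Fcgr4*.

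*Fcer1g*, the γ chain that these receptors need for signalling and surface expression, was at 405.7, 492.4 and 513.1 CPM in WT and at 411.0, 387.6 and 435.3 CPM in Lpcat3 KOMac mice 1 to 3. WT mice 2 and 3 were above every Lpcat3 KOMac mouse, but WT mouse 1 lay among them. The log2 fold change was -0.19 (standard error 0.12, 95% confidence interval -0.48 to 0.09, adjusted p = 0.9999 in edgeR).

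*Fcgrt*, the recycling receptor, was at 411.4, 477.1 and 360.5 CPM in WT and at 302.5, 347.8 and 395.8 CPM in Lpcat3 KOMac mice 1 to 3. Lpcat3 KOMac mouse 3 was above WT mouse 3, and the groups overlapped. The log2 fold change was -0.26 (standard error 0.15, 95% confidence interval -0.63 to 0.12, adjusted p = 0.9999 in edgeR). Its partner *B2m* was lower in all 3 Lpcat3 KOMac libraries than in all 3 WT libraries, beside 5.2% of all genes. *B2m* averaged 2433 ± 216.4 CPM in WT and 2138 ± 200.3 CPM in Lpcat3 KOMac (SD, n = 3 each). Its log2 fold change was -0.19, with an adjusted p of 0.9999 in edgeR.

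*Fcgr2b*, the inhibitory receptor, was at 83.5, 63.4 and 104.4 CPM in WT and at 163.8, 146.6 and 96.8 CPM in Lpcat3 KOMac mice 1 to 3. Lpcat3 KOMac mice 1 and 2 were above every WT mouse, but mouse 3 was below WT mouse 3. The mean in Lpcat3 KOMac cells was 162.1% of that in WT, and the log2 fold change was 0.70 (standard error 0.26, 95% confidence interval 0.05 to 1.34). Its adjusted p was 0.9999 in edgeR and its exact permutation p 0.2. The unadjusted edgeR p was 0.0389, and *Fcgr2b* was the only gene of the 6 under 0.05. Of all genes tested 2.64% were under 0.05, 1.07% with the higher and 1.57% with the lower level in Lpcat3 KOMac. The unadjusted p of *Fcgr2b* was under 0.05 in 11 of 18 alternative analyses and ranged from 0.0101 to 0.611 over them. Many of these refit the same 6 libraries. The edgeR p of *Fcgr2b* was 0.0716, 0.102 and 0.0245 without WT mouse 1, 2 or 3. Without Lpcat3 KOMac mouse 1, 2 or 3 it was 0.101, 0.0893 and 0.0101. *Fcgr4* and *Fcer1g* were under 0.05 in 2 alternatives each and *Fcgr3* in 1. Each was under 0.05 without WT mouse 1 and Lpcat3 KOMac mouse 2, where 1767 of 16126 genes were. *Fcer1g* was also without WT mouse 1 (2028 of 16487 genes), and *Fcgr4* without Lpcat3 KOMac mouse 2 (245 of 16539). *Fcgr2b* also varied most between mice, 2.59-fold from lowest to highest, against 1.30-fold to 1.58-fold for the other 5.

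**Figure D1:**
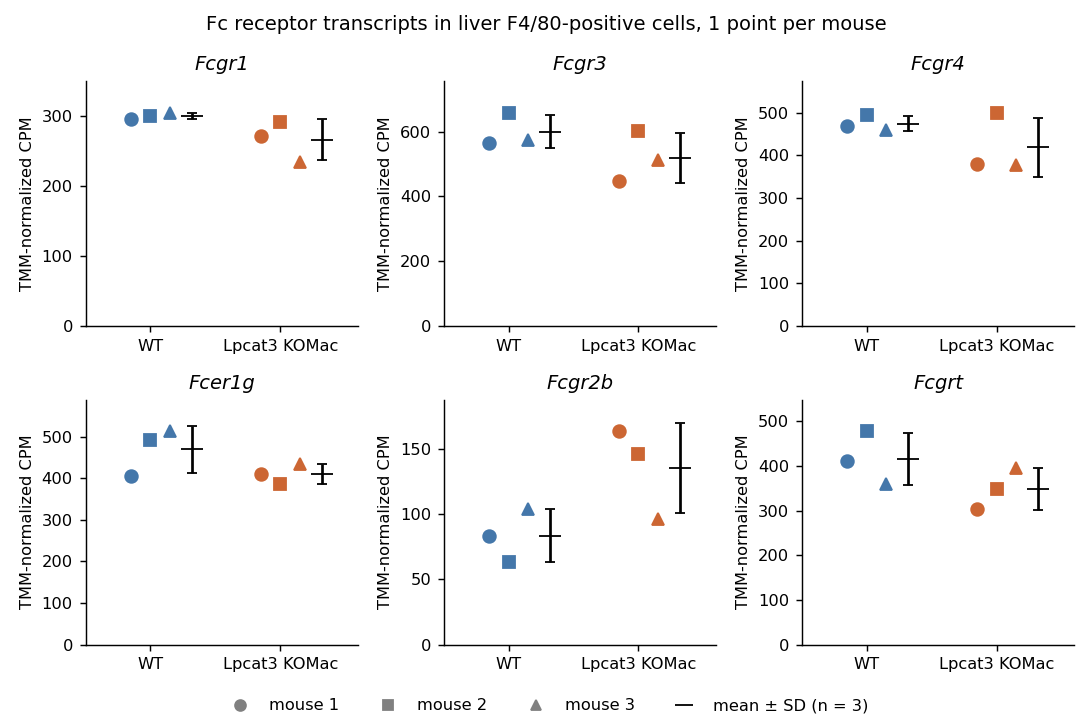
TMM-scaled CPM of the 6 Fc receptor genes in each mouse (points), with the mean and SD of 3 WT and 3 Lpcat3 KOMac mice. *Fcgr1* is the gene whose groups do not overlap (234.7 to 292.5 CPM in Lpcat3 KOMac against 296.6 to 305.0 CPM in WT), and 2 of the 3 Lpcat3 KOMac values of *Fcgr2b* lie above all WT values.

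**Figure D2:**
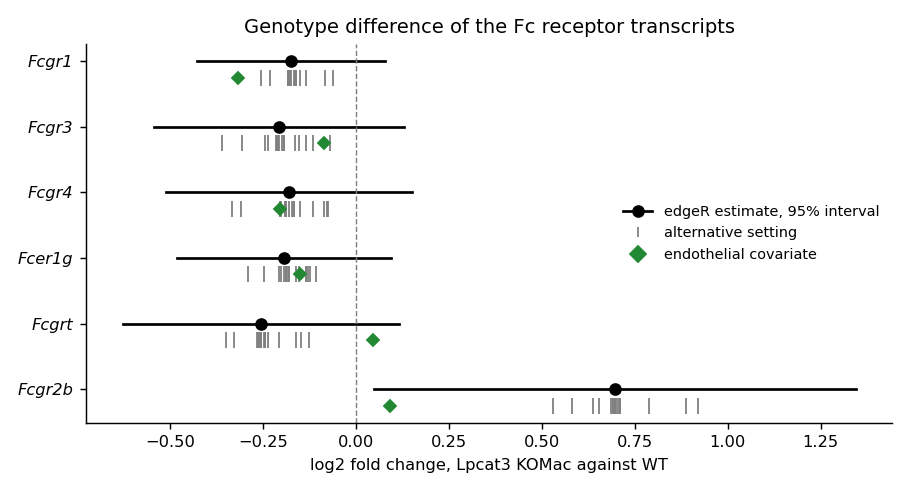
Log2 fold change of each gene (Lpcat3 KOMac against WT) with its 95% confidence interval from edgeR, the values under other processing choices as grey ticks, and the value with the endothelial markers as a covariate as a green diamond. The *Fcgr2b* interval (0.05 to 1.34) lies above 0 without adjustment, those of the other 5 include 0, and with the covariate *Fcgr2b* moves to 0.09 and *Fcgrt* to 0.046.

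The balance of activating to inhibitory receptor transcripts was taken per library as the sum of *Fcgr1*, *Fcgr3* and *Fcgr4* over *Fcgr2b*, all in CPM per kb. It is given as a description, with no test. In WT mice 1 to 3 activating transcripts were 56.5, 81.1 and 45.2 times those of *Fcgr2b*, and in Lpcat3 KOMac mice 1 to 3 they were 23.5, 33.8 and 41.0 times. Every Lpcat3 KOMac ratio was below every WT ratio, although mouse 3 of each group stood close together. On the log2 scale the ratio was 5.89 ± 0.43 in WT and 4.997 ± 0.41 in Lpcat3 KOMac (SD, n = 3 each), a difference of -0.89. With the length of the longest protein-coding transcript the difference was also -0.89, but the ratios themselves depend on the length used.

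Each activating receptor taken alone over *Fcgr2b* also separated the groups, with log2 differences of -0.87 for *Fcgr1*, -0.90 for *Fcgr3* and -0.88 for *Fcgr4*. These ratios share *Fcgr2b* as their denominator, so they are not independent results. How many other genes taken over *Fcgr2b* would also separate the groups was not computed. No ratio was computed with the endothelial markers as a covariate, with which the log2 fold change of *Fcgr2b* was 0.09 in place of 0.70. Among the Fcγ receptor transcripts, taken per kb of exon, *Fcgr2b* made up 1.22% to 2.17% in WT and 2.38% to 4.08% in Lpcat3 KOMac libraries. The shares of *Fcgr3* (37.1% to 42.1%) and *Fcgr4* (42.7% to 45.1%) overlapped between the groups.

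**Figure D3:**
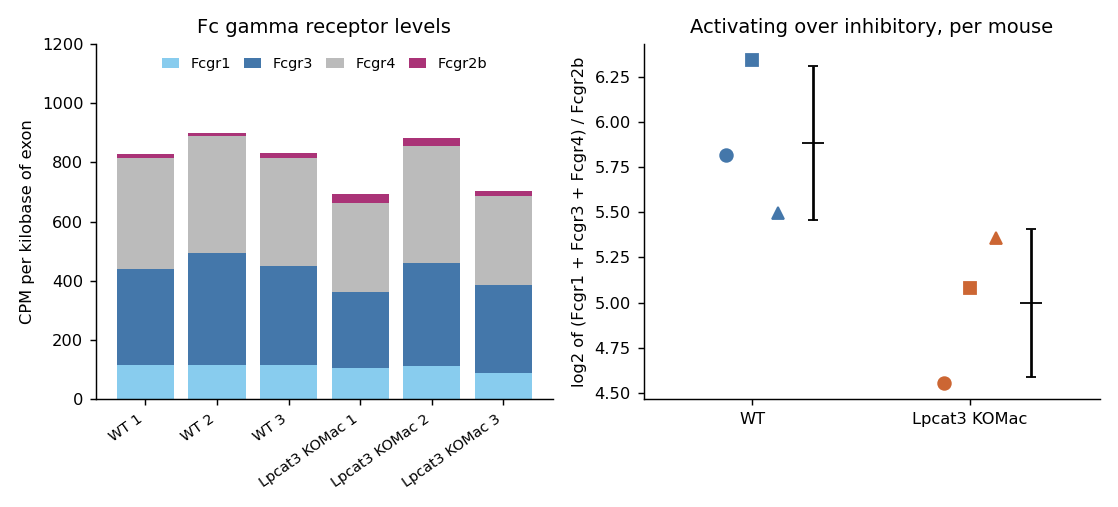
Left, CPM per kb of *Fcgr1*, *Fcgr3*, *Fcgr4* and *Fcgr2b* stacked for each library. Right, the log2 ratio of the activating sum to *Fcgr2b* in each mouse with group mean and SD, where the 3 Lpcat3 KOMac values (4.55 to 5.36) lie below the 3 WT values (5.50 to 6.34).

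The libraries ranked by *Fcgr2b* in the order Lpcat3 KOMac mouse 1, Lpcat3 KOMac mouse 2, WT mouse 3, Lpcat3 KOMac mouse 3, WT mouse 1 and WT mouse 2. The mean log2 CPM of the 8 sinusoidal endothelial markers ranked them in the same order. So did *Kdr*, a VEGF receptor, and *Ptprb*, an endothelial phosphatase, taken alone. *Kdr* was at 68.6, 62.4 and 95.7 CPM in WT and at 169.2, 130.5 and 91.5 CPM in Lpcat3 KOMac mice 1 to 3. The same pair of libraries was highest for *Fcgr2b* and for 5 of the 8 markers (*Clec4g*, *Oit3*, *Dnase1l3*, *Kdr* and *Ptprb*). It was not highest for *Stab2*, *Pecam1* and *Cdh5*, which are also endothelial genes. Pearson's r of their log2 CPM with *Fcgr2b* was -0.03, -0.87 and -0.65, against 0.90 to 0.98 for those 5 markers. By summed CPM, WT mouse 2 was the highest library for the 8 markers (2246 CPM), whereas their mean log2 CPM ranked it last.

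Of the 8 endothelial markers, 6 had a log2 fold change above 0, with a median of 0.41, and none passed the adjusted test. With their mean as a covariate in edgeR, the log2 fold change of *Fcgr2b* was 0.09 (adjusted p = 1) in place of 0.70. That of *Fcgrt* was 0.046 (adjusted p = 1) in place of -0.26, a change of sign. The endothelial mean is itself uneven between the genotypes, and what part endothelial RNA had in the *Fcgr2b* counts was not tested. B and plasma cells also express *Fcgr2b*. The sum of their 6 markers was 17.2 to 50.1 CPM in WT and 23.92 to 34.98 CPM in Lpcat3 KOMac libraries, of which *Jchain* alone gave 30.3 CPM in WT mouse 2, and their part in the *Fcgr2b* counts was not tested.

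**Figure D4:**
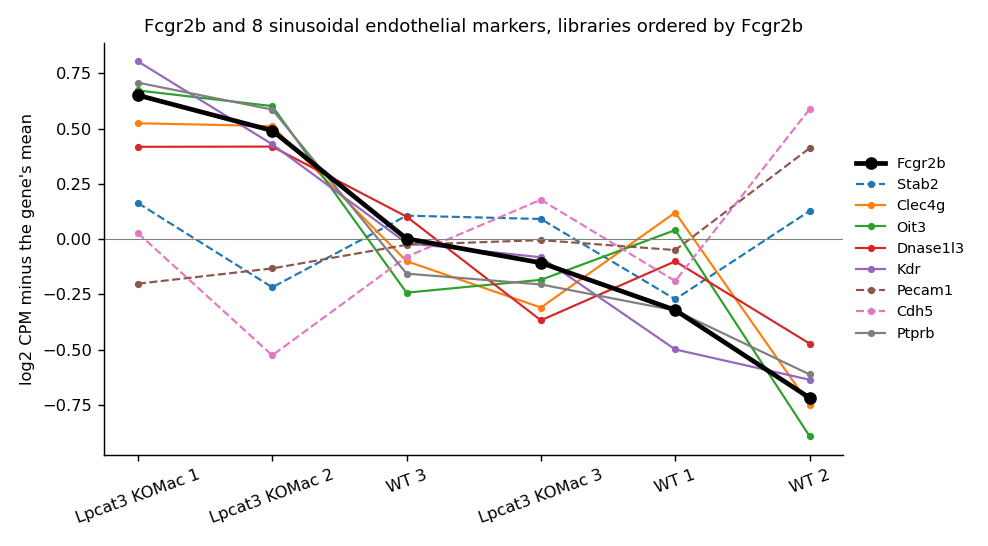
Log2 CPM minus each gene's mean over the 6 libraries, for *Fcgr2b* and the 8 sinusoidal endothelial markers, with libraries ordered from highest to lowest *Fcgr2b* and *Stab2*, *Pecam1* and *Cdh5* drawn dashed. *Kdr* and *Ptprb* descend in the same order as *Fcgr2b*, and the 3 dashed lines do not.

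*Fcgrt* ranked the libraries in exactly the reverse order of *Fcgr2b*. Pearson's r between their log2 CPM was -0.97 over the 6 libraries, a description across points that share library and composition. *Fcgr3* and *Fcgr4* varied together (r = 0.90), as did *Fcgr1* and *Fcgr4* (r = 0.83), over the same 6 libraries. *Fcer1g* followed neither *Fcgr1* (r = 0.27) nor *Fcgr4* (r = 0.14) closely.

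The 3 genes most like each receptor were taken by Pearson's r of log2 CPM over the 6 libraries, among 9071 tested genes with a mean of at least 10 CPM. For *Fcgr2b* they were *Npr1* (r = 0.995), a natriuretic peptide receptor, the calcium pump *Atp2b4* (r = 0.993) and the transcription factor *Zeb1* (r = 0.992). For *Fcer1g* they were *Rab24* (r = 0.996), *Scand1* (r = 0.995) and *Zdhhc7* (r = 0.992). *Fcgrt* was most like *Ccnq* (r = 0.993), *Puf60* (r = 0.986) and *Pon2* (r = 0.983). For *Fcgr1* the list was *Zfp35* (r = 0.987), the ribosomal protein gene *Rpl27a* (r = 0.971) and *Fam32a* (r = 0.969). *Tor1a* (r = 0.977) and *Ino80c* (r = 0.968) were among the 3 for *Fcgr4*, and *Fcgr3* was most like *Tceanc2* (r = 0.977), *Snd1* (r = 0.958) and *Slc25a26* (r = 0.953). None of these lists held another of the 6 receptors. With only 6 libraries and 9071 genes to choose from, high values of r also arise by chance, so the lists are descriptions only.

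Of the other Fc receptor genes, 12 were listed and 8 had enough counts to be tested, and none passed the adjusted test. *Pigr*, which carries IgA and IgM across epithelia, ranged from 36.7 to 531.8 CPM and ranked the 6 libraries in the same order as the sum of hepatocyte markers. *Fcrla*, a neighbour of *Fcgr2b* expressed in B cells, was at most 0.98 CPM, with a log2 fold change of -0.93. It was lower in every Lpcat3 KOMac library, beside 5.2% of all genes.

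The adaptor genes *Tyrobp* (DAP12, related to the γ chain) and *Hcst*, with receptor genes listed beside them, were examined as a group of 9. Of these, 8 were tested and 6 had a log2 fold change above 0, with a median of 0.30. The 2 below 0 were the adaptors *Tyrobp* and *Hcst* (-0.41 for *Hcst*). None passed the adjusted test. *Tyrobp* averaged 779.6 ± 63.8 CPM in WT and 658.7 ± 47.4 CPM in Lpcat3 KOMac (SD, n = 3 each), with a log2 fold change of -0.24. It was lower in every Lpcat3 KOMac mouse, beside 5.2% of all genes. *Clec7a*, which encodes the β-glucan receptor Dectin-1, averaged 516.4 ± 85.1 CPM in WT and 665.4 ± 62.0 CPM in Lpcat3 KOMac (SD, n = 3 each), and its log2 fold change was 0.37. Its groups overlapped and its adjusted p in edgeR was 0.9999.

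Downstream of the receptors, 22 genes of activating signalling were all tested and 0 had an unadjusted p under 0.05 in edgeR, beside 2.64% of all genes. Their median log2 fold change was -0.07, with 18 below 0, and under scaling by total counts alone it was 0.02, with 9 below 0. The Src family kinase gene *Lyn* averaged 699.3 ± 73.4 CPM in WT and 647.2 ± 29.9 CPM in Lpcat3 KOMac, and *Syk* at 533.5 ± 61.3 and 517.4 ± 41.8 CPM (SD, n = 3 each). Of the 7 genes of inhibitory signalling, 0 had an unadjusted p under 0.05, beside the same 2.64% of all genes. At that share few or none are expected in lists this short, so these counts do not show that signalling genes were unchanged. *Inpp5d*, which encodes the phosphatase recruited by *Fcgr2b*, averaged 292.7 ± 63.0 CPM in WT and 293.9 ± 50.8 CPM in Lpcat3 KOMac (SD, n = 3 each). Its log2 fold change was 0.01, with a 95% confidence interval of -0.50 to 0.51.

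The genes of the interferon-γ response and of myeloid regulation, which include known inducers of *Fcgr1*, numbered 15. Of these, 0 had an unadjusted p under 0.05 in edgeR, beside 2.64% of all genes. Their median log2 fold change was 0.02. Without WT mouse 1 and Lpcat3 KOMac mouse 2 that median was -0.31, with 13 of the 15 below 0. *Spi1*, which encodes the myeloid factor PU.1, averaged 520.9 ± 73.3 CPM in WT and 475.2 ± 22.8 CPM in Lpcat3 KOMac (SD, n = 3 each), with overlapping groups.

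A list of immunoglobulin chains and pentraxins, which includes the IgG heavy chains, held 11 genes. Its summed level lay between 42.3 and 393.9 CPM in WT and between 94.6 and 223.0 CPM in Lpcat3 KOMac libraries. In the library with the highest sum of each group, the IgM heavy chain *Ighm* gave 261.8 CPM (WT mouse 2) and 124.9 CPM (Lpcat3 KOMac mouse 3). The light chain *Igkc* gave 116.3 and 60.8 CPM in these libraries, and the pentraxin *Crp* gave 156.1 CPM in WT mouse 1. The sums are therefore not a measure of IgG transcripts. *Ptx3* was at 0 in every library. The IgG heavy chain *Ighg1* was at most 0.65 CPM, and the other IgG heavy chains listed were at most 1.06 CPM each.

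**Figure D5:**
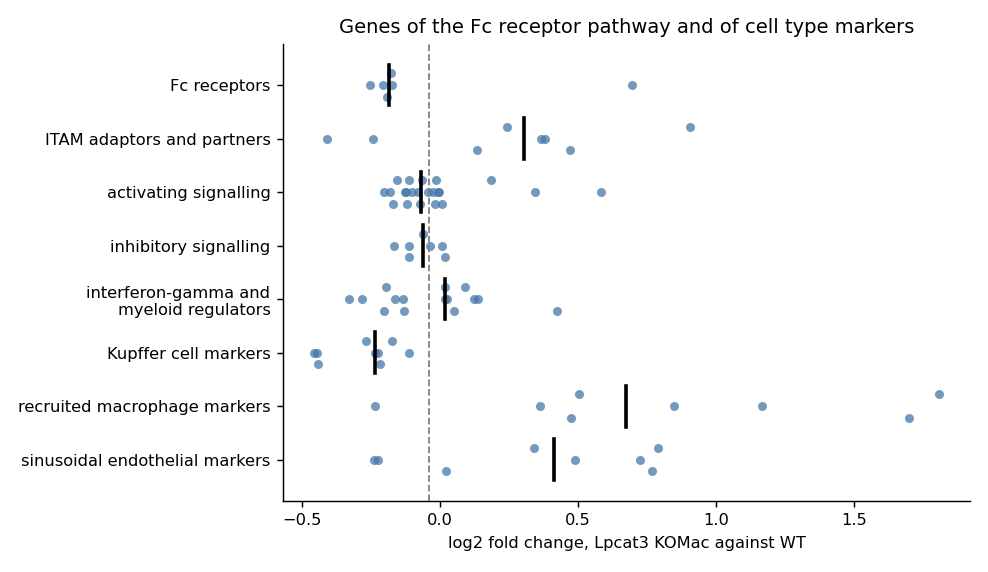
Log2 fold change (Lpcat3 KOMac against WT) of every tested gene in each list, with the list's median as a black bar and the median of all 16134 genes (-0.04) as a dashed line. The signalling lists lie close to the median of all genes, and the 9 Kupffer cell markers lie below 0 with a median of -0.24.

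Kupffer cell markers had estimates of the same sign as those of the activating receptors. All 9 had a log2 fold change below 0, between -0.46 and -0.11 with a median of -0.24, beside 59.9% of all genes. Of the 9, 2 (*Clec4f* and *Folr2*) were lower in every Lpcat3 KOMac mouse, beside 5.2% of all genes. None passed the adjusted test. Their summed level was 29820 to 41470 CPM in WT and 23450 to 32470 CPM in Lpcat3 KOMac. All 7 hepatocyte markers were also below 0, with a median of -0.38. Without WT mouse 1 and Lpcat3 KOMac mouse 2, 0 of these 7 and 8 of the 9 Kupffer cell markers were below 0. Markers of recruited monocytes and macrophages had a log2 fold change above 0 in 7 of 8 genes, with a median of 0.67 and sums of 120.3 to 498.9 CPM in WT and 438.0 to 527.1 CPM in Lpcat3 KOMac. *Chil3*, *Spp1* and *Gpnmb*, 3 of these 8, were higher in every Lpcat3 KOMac mouse, beside 2.29% of all genes. The part of the mix of resident and recruited cells in the Fc receptor values was not tested.

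Promoters were examined because the activating receptors and *Fcgr2b* had estimates of opposite sign. RefSeq promoters (GRCm38.p6, 250 bases before to 50 after the start site) were found for all 6 genes, as 7 windows, because *Fcgr3* had more than 1 start site. The purine-rich motif GAGGAAG, a core to which PU.1 is known to bind, was searched on both strands and was present in those of *Fcgr1*, *Fcgr3* and *Fcgr4* and in 13.6% of 32851 promoters. These letters were not in the windows of *Fcgr2b*, *Fcer1g* and *Fcgrt*. The palindromic motif TTCNNNGAA, searched in the same way, was in the window of *Fcgr1* alone of the 6 and in 8.3% of all promoters. The stretches around these matches are shown on each gene's own strand, with the match in capitals, and the first motif reads as its reverse complement in all 3. Those of *Fcgr1* and *Fcgr4* lie at chr3:96293999-96294045 (minus strand, 56 bases before the start site) and chr1:171018883-171018929 (plus strand, 23 bases before). That of *Fcgr3* lies at chr1:171059384-171059430 (minus strand), with the match 7 bases before 1 start site and 16 bases before another. The palindromic match of *Fcgr1* lies at chr3:96294050-96294098, 109 bases before the start site.
*Fcgr1*: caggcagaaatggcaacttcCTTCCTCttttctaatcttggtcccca
*Fcgr3*: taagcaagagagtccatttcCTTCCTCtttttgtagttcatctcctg
*Fcgr4*: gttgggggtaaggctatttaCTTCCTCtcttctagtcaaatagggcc
*Fcgr1* palindrome: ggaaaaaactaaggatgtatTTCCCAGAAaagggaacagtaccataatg
A match describes the letters of the window and was not tested for binding or effect. The 3 genes with the purine-rich match had log2 fold changes between -0.21 and -0.17. Those without it were at -0.19 (*Fcer1g*), -0.26 (*Fcgrt*) and 0.70 (*Fcgr2b*). None of the 6 passed the adjusted test, and a link between match and level was not tested.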

How the data were processed

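Poly-A RNA of liver F4/80-positive cells was sequenced from 3 WT and 3 Lpcat3 KOMac mice, with genotype and replicate number from the labels. Unnormalized read counts were deposited by the authors, 1 table for each mouse, and the submitters' processing notes name Trimmomatic 0.36, STAR 2.5.2b, featureCounts of Subread 1.5.2 and GRCm38. Strand setting and handling of multi-mapping reads are not given in the sources used here. All 16134 genes passing edgeR's default filter (minimum count 10) entered a test in edgeR 4.0.16 under R 4.3.3 (TMM, quasi-likelihood test, robust dispersion, genotype only), with Benjamini-Hochberg adjustment over all of them. A standard error is the size of the log2 fold change over the square root of F, and CPM used a prior count of 2 on the log2 scale. Permutation tests were exact and two-sided. The test was checked on simulated data with larger changes and a capped spread between libraries. That check does not cover changes as small as those of the receptors.

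The genes and lists were chosen with earlier results of these data known. Named were the 6 receptors, the 2 to 4 highest genes of each list by role, list genes with an unadjusted p under 0.05, the 3 genes most like each receptor, and genes overlapping or neighbouring a receptor. Alternatives were DESeq2 1.42.0 and its size factors, limma-voom (limma 3.58.1), total counts, other filters, no robust dispersion, a replicate block, hepatocyte or endothelial covariates, a length offset, and leaving out libraries. The ratio with coding transcript lengths was added after seeing the data, as was the ratio without WT mouse 1 and Lpcat3 KOMac mouse 2. Values of a few genes chosen by these rules are not reported here.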

Additional observations from a re-analysis of the deposited data

How the results depend on the processing

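Of 108 values (18 alternatives for each of the 6 receptors), 107 kept their direction and stayed without an adjusted call, and 1 changed sign, *Fcgrt* with the endothelial covariate (log2 fold change 0.046). The count of genes called was 0 under every alternative except DESeq2, with 12. *Fcgr2b* had the widest range, 0.09 to 0.79, and 0.53 to 0.92 with 1 mouse left out at a time, and its lowest adjusted p was 0.451. The same ranges with 1 mouse left out were -0.23 to -0.06 for *Fcgr1*, -0.31 to -0.07 for *Fcgr3*, -0.31 to -0.07 for *Fcgr4*, -0.29 to -0.13 for *Fcer1g* and -0.35 to -0.13 for *Fcgrt*. The value nearest 0 came without Lpcat3 KOMac mouse 3 for *Fcgr1*, without Lpcat3 KOMac mouse 1 for *Fcgr3*, *Fcgr4* and *Fcgrt*, and without WT mouse 3 for *Fcer1g*. Scaling by total counts gave -0.08 for *Fcgr1*, 0.79 for *Fcgr2b*, -0.11 for *Fcgr3*, -0.09 for *Fcgr4*, -0.11 for *Fcer1g* and -0.16 for *Fcgrt*. Without WT mouse 1 and Lpcat3 KOMac mouse 2 the log2 fold changes of *Fcgr1* and *Fcgr2b* were -0.25 and 0.64. The cause of these shifts was not tested. Replicate numbers are not stated to pair the mice. Correlations of same-numbered deviations from the group means were -0.30, -0.60 and 0.36, and that of WT mouse 1 with Lpcat3 KOMac mouse 2 was 0.67. With 3 mice per group these values cannot decide whether the mice were paired. With the replicate block, edgeR called 0 genes, 138 had an unadjusted p under 0.05, and the log2 fold changes were -0.18 for *Fcgr1*, 0.70 for *Fcgr2b*, -0.21 for *Fcgr3*, -0.19 for *Fcgr4*, -0.19 for *Fcer1g* and -0.26 for *Fcgrt*. The difference in log2 ratio of activating to inhibitory transcripts ranged from -1.08 to -0.66 with 1 mouse left out at a time. With counts of 3174 to 36758 per gene and library, the spread between mice and not depth limits these values.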

Other observations

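*Fcrl5*, an Fc receptor-like gene of B cells, was at 0.34 to 0.48 CPM in the 3 WT mice and at 0.34, 2.58 and 10.9 CPM in Lpcat3 KOMac mice 1 to 3. Its log2 fold change of 3.43 (adjusted p = 0.9999 in edgeR) rests mostly on mouse 3. *Ighg1* was higher in every Lpcat3 KOMac mouse than in every WT mouse, beside 2.29% of all genes. It was at 0.41 ± 0.22 against 0.14 ± 0.05 CPM (SD, n = 3 each), with at most 38 counts in any library (adjusted p = 0.9999 in edgeR).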
